A study of Sus scrofa with 32 samples.

Results

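Monocytes and macrophages are recognised by a small set of transcripts, and 8 of them were followed here across blood and ileum of the pig: CD14, CD163, CSF1R, SIRPA, CD68 and the C1q chains C1QA, C1QB and C1QC. The genes were fixed by name, not by their measured values, but they were chosen with earlier results of these data known. Of the 25880 genes counted, 7 of the 8 were found by their symbol, and SIRPA was the row ENSSSCG00000028461, which carries no symbol in the matrices and was named through the gene table of the study. Levels were read in gated cells, that is cells that passed minima for unique molecular identifiers (UMIs, each a counted RNA molecule) and for genes and a limit on mitochondrial UMIs, and had 0 UMIs of CD3E, a chain of the T cell receptor complex, and of CD79B, a chain of the B cell receptor complex. The gate kept 8509 of 48629 quality-filtered cells.

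Cells came from 2 mixed-breed pigs of 7 weeks. Ileum of each pig was taken as tissue with Peyer's patches (PP), as tissue free of patches (non-PP) and as a full cross section (whole ileum), and peripheral blood mononuclear cells (PBMCs) of the same animals made the fourth group. Each group held 2 libraries, 1 per pig by the labels, so that 8 droplet libraries with 3′ UMI counting were compared. No pig was treated, infected or genetically altered according to the labels. Ileal cells were released with an EDTA wash and enzyme digestion and enriched for living lymphocytes on a Percoll layer, whereas PBMCs came from cell preparation tubes, so the tissue and the way the cells were isolated cannot be told apart.

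Circulating monocytes leave the bone marrow, enter tissues such as the intestine and become macrophages there, while dendritic cells (DCs) arise along a branch of their own. CSF1R, the receptor for the growth factors CSF1 and IL34, keeps both monocytes and macrophages alive. CD14 hands bacterial endotoxin to the receptor TLR4, CD163 takes up haemoglobin bound to haptoglobin, SIRPA reads the self signal CD47 on neighbouring cells, and CD68 is a glycoprotein of lysosomes. C1QA, C1QB and C1QC encode the chains of C1q, which starts the classical complement pathway when it binds antibody or debris, and unlike most complement proteins C1q is made largely by macrophages.

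On the pig assembly Sscrofa11.1, the build of the files, the RefSeq table places C1QA at chromosome 6, 80586259-80589213, C1QC at 80592591-80597464 and C1QB at 80601680-80606076, so the chains are neighbours that do not overlap. CD14 lies on chromosome 2 at 142348036-142349686 and CSF1R on the same chromosome at 151102138-151130311. CD163 lies on chromosome 5 at 63300200-63334497, CD68 on chromosome 12 at 52874754-52877256 and SIRPA on chromosome 17 at 33566270-33611375. UMIs were counted per gene, so all values below are for whole genes and not for isoforms.

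The libraries held 21134542 to 40111934 UMIs and 3776 to 7704 quality-filtered cells, of which 9.21% to 29.4% in ileum and 21.7% to 36.8% in blood were gated. By the labels each group had 2 animals. The p-values rest on the spread between the 2 libraries or sums within groups, estimated jointly over all groups of a fit. Groups outside a comparison thus enter its spread, such as whole ileum in PP against non-PP. Of 8469 distinct barcodes among the gated cells, 40 occurred in more than 1 library. The library labelled whole ileum of pig 1 went against its label. Its Y-linked genes reached 207 CPM (UMIs of a gene divided by all UMIs of the summed cells, times 1e6). This level lay within the 119 to 226 CPM of the libraries of pig 2, which the study describes as male. It was far from the 0 to 0.224 CPM of the other libraries of pig 1, which the study describes as female. Both whole ileum libraries thus had Y-linked genes at the level of pig 2, and this group may hold 1 animal. The class sums of pig 1 include the library in question, with 17 of 55 macrophage-like and 42 of 74 DC-like cells. The 2 sums of these ileal classes may then not be of separate animals. Results were therefore also computed without both whole ileum libraries.

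Gated cells were clustered in blood and in ileum separately, with the 8 genes and the genes of the pathway lists left out, and clusters were named from markers other than these. In the ileum a cluster of 93 cells had APOE, TIMD4 and CLU among its leading genes and was called macrophage-like. Its macrophage markers summed to 18800 and 12200 CPM in the 2 pigs, with 3 of the 15 markers at 0. Its natural killer (NK) or innate lymphoid cell (ILC) markers summed to 1500 and 2450 CPM, and its monocyte markers to 1220 and 1320 CPM. A pair of ileal clusters with 143 cells had FLT3 and CD1E, or CADM1 and SNX22, among its leading genes and was called DC-like. In blood 4 clusters with 881 cells had S100A8, S100A9, S100A12, CSF3R or THBS1 among their leading genes and were called monocyte-like. Their monocyte markers were at 7910 and 12000 CPM, their NK or ILC markers at 1080 and 1110 CPM and their macrophage markers at 135 and 182 CPM. The name is less sure for cluster 9 of these. It also had the neutrophil marker LTF among its leading genes and scored 1.419 for monocyte and 1.02 for neutrophil markers. Only 3 neutrophil markers were in the matrices, and 2 of these had no UMI in the monocyte-like cells. Blood clusters 4 and 5 were kept by number. Cluster 4 (284 cells, with GMPR, CXCL10 and APOE among its leading genes) scored highest for monocyte markers, but among its leading genes those of another marker list outnumbered them. Cluster 5 (249 cells, with SPIC, PLA2G2D and MARCKS among its leading genes) scored 0.313 for macrophage and 0.301 for plasmacytoid DC markers, and its monocyte markers summed to 2550 and 4280 CPM.

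Before any class was formed, the 8 genes already divided by tissue. Of the 8 genes 7 were called, beside 26.3% of the 10133 genes tested in that comparison: CD14, CD163, CSF1R and SIRPA were higher in gated cells of blood and the C1q genes in those of ileum, while CD68 did not pass the test. Over all genes 1266 were called higher in blood and 1398 lower. In such sums fewer cells of a type and less RNA per cell cannot be told apart.

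CSF1R stood at 156 and 148 CPM in the PBMC libraries, and at 10.4, 15.8 and 24.3 CPM as the lowest, median and highest of the 6 ileal libraries. The groups did not overlap, and the fitted log2 difference, blood minus ileum, was 3.28 ± 0.21 (SE; adjusted p = 0.000524). CD14 reached 72.6 CPM in pig 1 and 142 CPM in pig 2 of blood against 4.23 to 20.1 CPM in ileum, a log2 difference of 3.81 ± 0.41 (adjusted p = 0.00213).

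SIRPA was at 54.6 and 69.5 CPM in blood and at 6.20 to 20.5 CPM in ileum, a log2 difference of 2.75 ± 0.28 (adjusted p = 0.00163). CD163 was at 22.3 and 55.8 CPM in blood and at 0.885 to 14.7 CPM in ileum, with a log2 difference of 2.89 ± 0.45 (adjusted p = 0.00697). Its call was lost without the PBMC library of pig 2, where the adjusted p was 0.0997. In each of these genes the lower blood library still lay above the highest ileal library.

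C1QA ran the other way, at 3.76 and 5.99 CPM in blood against 185, 395 and 437 CPM as the lowest, median and highest in ileum. The log2 difference was -5.90 ± 0.29 (adjusted p = 0.000269), and those of C1QB and C1QC were -4.55 ± 0.50 (adjusted p = 0.00224) and -4.98 ± 0.58 (adjusted p = 0.00275). CD68 was at 25.9 and 37.0 CPM in blood and at 11.07 to 59.5 CPM in ileum, so the tissues overlapped (log2 difference 0.52 ± 0.32, adjusted p = 0.275). These sums mix cell types: monocyte-like cells were 14.8% and 26.9% of the gated cells of blood, whereas macrophage-like cells were 0.812% to 3.99% of those of ileum.

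**Figure D1:**
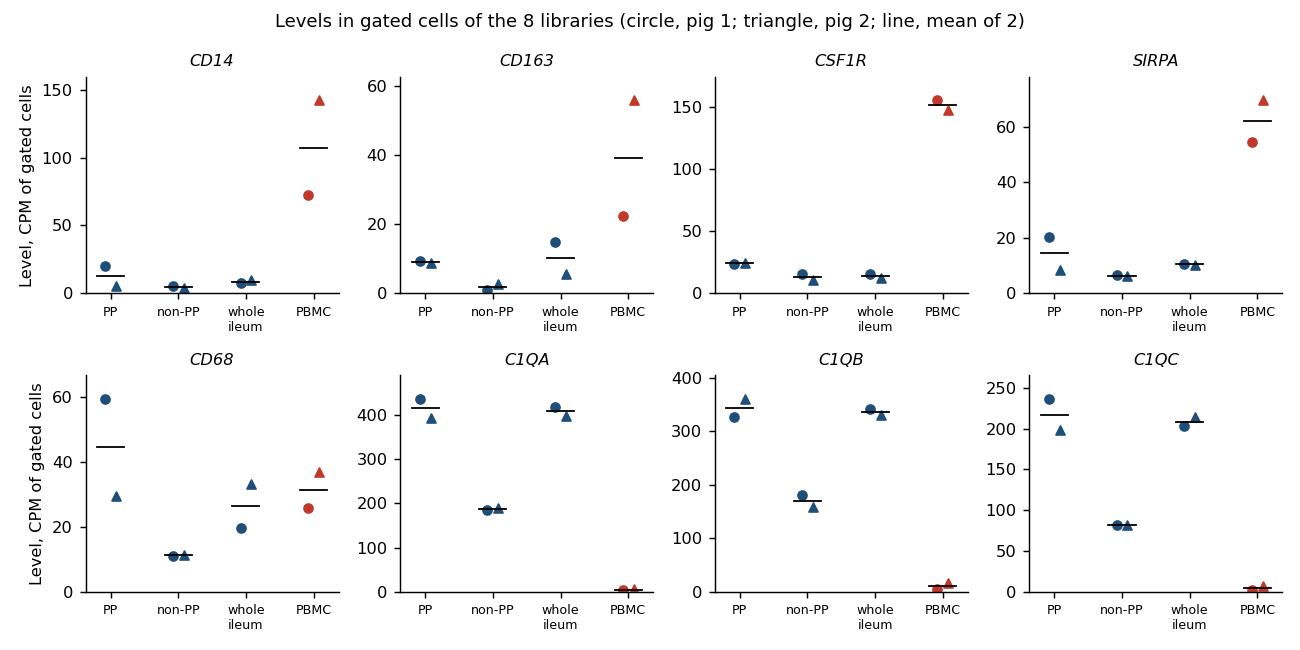
Level of each gene in the gated cells of each library, in CPM on a linear axis that starts at 0, by group. Circles are pig 1, triangles pig 2 and lines the mean of 2 libraries. CD14, CD163, CSF1R and SIRPA lie highest in PBMC, the C1q genes lie near 0 there, and the C1q genes lie lower in non-PP than in PP.

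Gated cells held 37.5% (SIRPA) to 70.1% (C1QB) of the members' UMIs of all quality-filtered ileal cells, with 41% for CD14, and 55.2% (C1QA) to 82.6% (CSF1R) in blood. Within the gated cells most ileal UMIs of 7 of the 8 genes came from few cells. In ileum the 93 macrophage-like cells held 96.8% of the C1QA, 97.3% of the C1QB and 97.1% of the C1QC UMIs of all gated cells, 95.6% of those of CD163 and 83.7% of those of CD68. They held 75.3% of the CSF1R and 69.1% of the CD14 UMIs, but only 44.8% of those of SIRPA, with another 16.4% in DC-like and 7.88% in mast-like cells. In blood the monocyte-like cells with clusters 4 and 5 divided the genes unevenly. Monocyte-like cells held 63.2% of the CD14 UMIs, whereas cluster 5 held 42.3% of those of CD68 and 88.9% to 93.5% of those of the C1q genes. Blood platelet-like cells had 109 and 156 CPM of CD14 and 253.5 and 130 CPM of CSF1R. This class pools clusters 11 (84 cells) and 15 (46 cells). Cluster 15 had monocyte markers as its second highest score (0.657, against 1.031 for platelet markers), so these levels were not assigned to platelets. Among 12 other classes with at least 20 cells in each pig (lymphoid, cycling, epithelial and stromal cells and a goblet-gene cluster kept by number), the highest mean level of any of the 8 genes was 15.4 CPM, that of C1QA in ileal stromal or endothelial-like cells. Smaller classes are outside this range: 34 blood erythroid-like cells had a mean of 40.5 CPM of SIRPA and 30.2 CPM of CD14, from 8 UMIs each, and 42 blood mast-like cells 55.3 CPM of C1QA from 9 UMIs, all in pig 2.

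CD14, the endotoxin co-receptor, was at 175 CPM in pig 1 and 275 CPM in pig 2 in blood monocyte-like cells, and at 220 and 177 CPM in ileal macrophage-like cells. The 2 classes overlapped, and the fitted log2 difference, blood monocyte-like minus ileal macrophage-like, was 0.08 ± 0.26 (adjusted p = 0.873). Its sign depended on the settings, between -0.24 and 0.49 over all alternatives. Blood clusters 5 and 4 followed with 157 ± 19.1 and 133 ± 15.6 CPM (mean ± SD, n = 2 pigs). Ileal DC-like cells had 5.44 and 5.56 CPM, from 4 UMIs in all. The monocyte-like level includes cluster 9, whose name is less sure, at 863 and 1355 CPM, and no alternative left this cluster out. Over the ileal libraries the macrophage-like level ran from 39.2 CPM (non-PP pig 1) to 316 CPM (PP pig 1). Of the 96 CD14 UMIs of macrophage-like cells, 1 cell held 18.

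CD163, the scavenger receptor for haemoglobin, was highest in ileal macrophage-like cells at 258 and 186 CPM. Blood monocyte-like cells had 54.0 and 73.5 CPM, and both pigs lay below both macrophage-like values. The log2 difference was -1.88 ± 0.28 (adjusted p = 0.000265), and it was called under each of the 19 alternatives. Over the 6 ileal libraries the macrophage-like level ranged from 39.2 CPM (non-PP pig 1) over a median of 165 to 520 CPM (whole ileum pig 1, the library that went against its label). That library gave 42 of the 69 CD163 UMIs of pig 1, and the other libraries of pig 1 had 184 CPM (PP) and 39.2 CPM (non-PP). Without both whole ileum libraries the log2 difference was -1.51 (adjusted p = 0.0107). DC-like cells held a single CD163 UMI.

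CSF1R was at 407 and 439 CPM in macrophage-like cells and at 286 and 200 CPM in monocyte-like cells, without overlap. The log2 difference of -0.90 ± 0.30 passed narrowly (adjusted p = 0.0443) and missed the threshold in 13 of 19 alternatives, with the largest adjusted p, 0.161, without the PBMC library of pig 2. With the pig as a replicate block it passed with a log2 difference of -0.92 (adjusted p = 0.00395). Cluster 5 of blood, at 446 and 335 CPM, overlapped with macrophage-like cells. DC-like cells, at 76.1 and 69.4 CPM, and plasmacytoid DC-like cells of blood, at 99.9 and 35.6 CPM, formed a lower step, and every ileal library had CSF1R in its DC-like cells, from 19.2 to 174 CPM.

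SIRPA, the receptor for CD47, had the smallest share of its gated ileal UMIs in macrophage-like cells among the 8 genes, as given above. It was at 198 and 100 CPM in macrophage-like, 129 and 104 CPM in monocyte-like and 48.9 and 25.0 CPM in DC-like cells. Monocyte-like and macrophage-like cells overlapped (log2 difference -0.49 ± 0.34, adjusted p = 0.338). Ileal mast-like cells, with FCER1A, MS4A2 and HDC among their leading genes, also had 59.5 and 178 CPM of SIRPA from 13 UMIs, next to 134 and 138 CPM of CD68 from 16 UMIs, while no UMI of CD14, CD163 or CSF1R was counted in their 47 cells.

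CD68, the lysosomal glycoprotein, was at 736 and 755 CPM in macrophage-like cells against 40.3 and 38.0 CPM in monocyte-like cells. Both pigs of each class lay close together, and the log2 difference was -4.35 ± 0.23 (adjusted p = 1.27e-08). Blood cluster 5 lay between them at 100 and 133 CPM, cluster 4 at 41.9 and 43.8 CPM was near the monocyte-like cells, and DC-like cells had 27.2 and 25.0 CPM. Over ileal libraries the macrophage-like level ran from 196 CPM in non-PP pig 1 over a median of 714 to 1023 CPM in PP pig 1.

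The C1q genes set the macrophage-like cells furthest apart. C1QA stood at 10130 and 11530 CPM, C1QB at 8288 and 9977 CPM and C1QC at 5109 and 5745 CPM in the 2 pigs. The 881 blood monocyte-like cells gave 1, 11 and 1 UMIs of these genes among 5140622. For C1QB the level in macrophage-like cells was 4220 times that in monocyte-like cells (95% interval 2360 to 8460, exact, counting error only), but 10 of the 11 blood UMIs lay in 1 cell of pig 2 and none in pig 1. For C1QA and C1QC, with a single UMI each in blood, the lower bounds of the interval were 9910 and 4970 times. The adjusted p values of the fit were 2.53e-08, 2.22e-08 and 2.22e-08 for C1QA, C1QB and C1QC. Of the 8 genes, 6 were thus called lower in blood monocyte-like than in ileal macrophage-like cells and 0 higher, beside 14% lower, 8.79% higher and 22.8% in either direction among the 4538 genes tested. CD14 and SIRPA, the other members, also missed an unadjusted p of 0.05 in edgeR, which 1563 of the 4538 genes passed. DESeq2 called 5 members lower and 0 higher, without CSF1R, beside 974 of the 4538 genes in either direction.

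**Figure D2:**
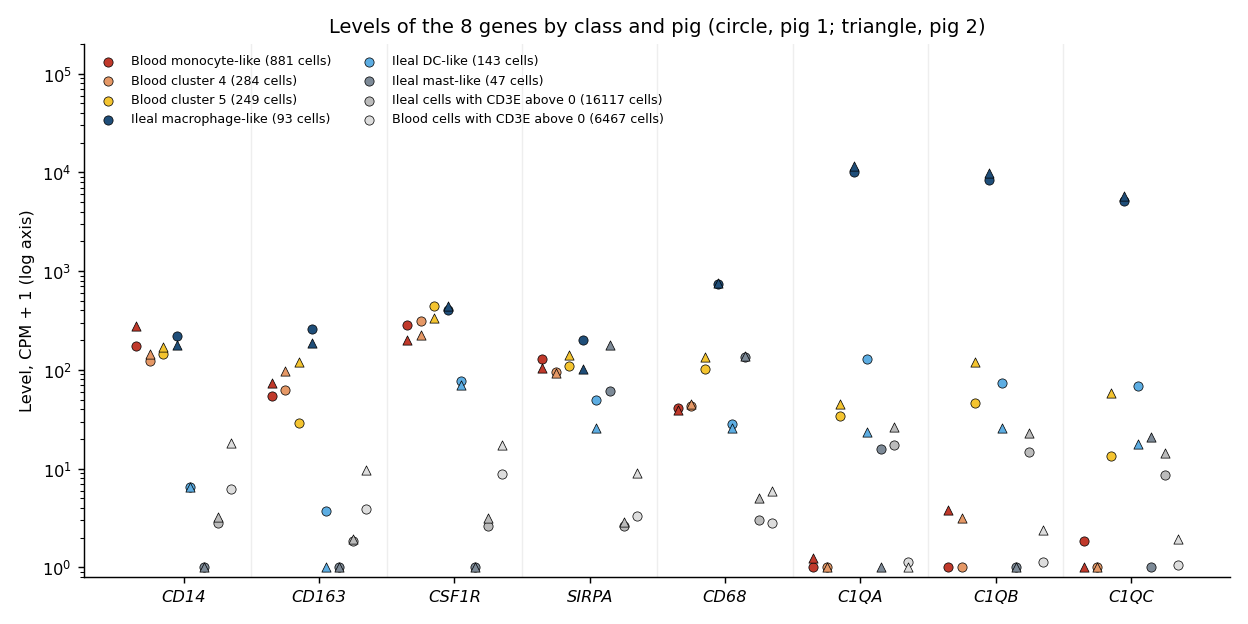
Level of each gene in 6 myeloid classes or clusters and in cells with CD3E above 0, in CPM + 1 on a log axis. Circles are pig 1 and triangles pig 2. The C1q genes lie between 5109 and 11530 CPM in ileal macrophage-like cells and at or below 128 CPM in every other class drawn, while CSF1R and SIRPA differ by less among monocyte-like and macrophage-like cells.

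Against ileal DC-like cells the picture turned. CD14, CD163, CSF1R and SIRPA were called higher in blood monocyte-like cells, the 3 C1q genes lower, and CD68 was not called, beside 16.8% higher, 16.2% lower and 33% in either direction among all genes tested. The log2 differences were 5.30 ± 0.45 for CD14 (adjusted p = 1.61e-06), 1.71 ± 0.34 for CSF1R (adjusted p = 0.00177) and 1.62 ± 0.40 for SIRPA (adjusted p = 0.00611). CD163 had 355 UMIs in blood and 1 in DC-like cells, a ratio of 50.3 (exact interval 8.96 to 1990, counting error only; adjusted p = 6.6e-05).

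CD68 differed by 0.55 ± 0.30 on the log2 scale (adjusted p = 0.214), and it passed with resolution 3 (adjusted p = 0.0486) and with clusters 4, 5 and 15 joined to the monocyte-like cells (adjusted p = 0.0083). For the C1q genes the DC-like level was low and uneven, at 128 and 22.2 CPM for C1QA, 73.4 and 25.0 CPM for C1QB and 68.0 and 16.7 CPM for C1QC. Unthinned, 124 of 143 DC-like cells had no C1q UMI and 2 had at least 10, with 33 of the 122 C1q UMIs in 1 cell. Barcodes with at most 100 UMIs, which hold free RNA of the suspension, had 36.0 to 128 CPM of C1QA in the ileal libraries and 5.92 to 8.0 CPM in blood. The DC-like C1QA level lay above that of such barcodes of the same library in PP pig 1 (194 against 62.8 CPM), whole ileum pig 1 (105 against 39.3 CPM) and non-PP pig 2 (79.9 against 48.5 CPM) and below it in the other ileal libraries. The part of free RNA in the C1q call against DC-like cells was not tested.

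Within the ileum macrophage-like and DC-like cells came from a single clustering and are set side by side without a test. The macrophage-like level was 5.78 times that of DC-like cells for CSF1R (exact interval 4.26 to 7.99, counting error only), 4.18 times for SIRPA (2.66 to 6.76), 28.5 times for CD68 (18.0 to 47.9) and 36.6 times for CD14 (13.8 to 137). For C1QA the intervals of the sums labelled pig 1 and pig 2 did not overlap, at 79.3 times (59.4 to 108) and 519 times (263 to 1200). These intervals do not cover the uneven spread of C1q UMIs over DC-like cells given above. Of the 74 DC-like cells of pig 1, 42 came from the whole ileum library that went against its label, so no difference between animals was read. The DC-like clusters differed among themselves. The cluster led by CD1E and FCER1A (93 cells) had 118 CPM of CSF1R and 57.7 CPM of SIRPA, whereas the cluster led by CADM1 and SNX22 (50 cells) had no UMI of CD14, CD163, CSF1R or SIRPA and 52.4 CPM of CD68 (means of 2 pigs).

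**Figure D3:**
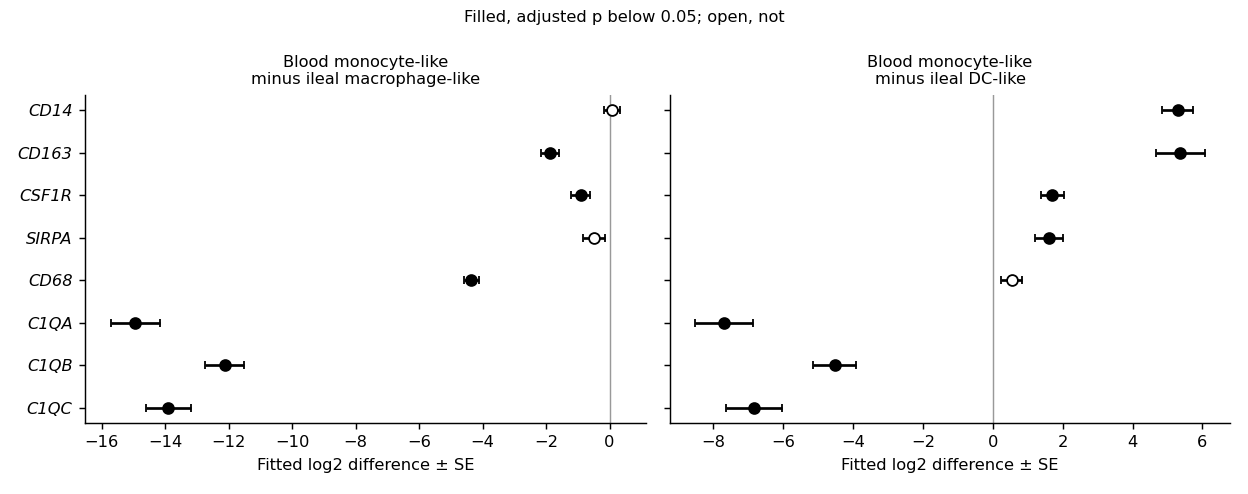
Fitted log2 differences with SE from edgeR, blood monocyte-like minus ileal macrophage-like (left) and minus ileal DC-like (right). Filled points have an adjusted p below 0.05. The size of the C1q differences rests on at most 11 blood UMIs per gene and depends on the prior count of the fit. CD14 lies at 0.08 on the left and at 5.30 on the right.

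Shares of cells with a UMI were compared after each cell was thinned at random to the UMI minimum of the filter, since median depths ran from 4263 UMIs in macrophage-like to 5130 in monocyte-like and 5302 in DC-like cells. C1QA was seen in 81.7% of macrophage-like cells (exact 95% interval 72.4 to 89.0, counting error only; 86.0% unthinned), against 4.20% of DC-like cells (1.56 to 8.91) and 0.596% of ileal cells with CD3E above 0 (0.483 to 0.727; median depth 2683 UMIs). The last were taken as background, although a few of them were C1q-high. CSF1R was seen in 41.9% of macrophage-like (31.8 to 52.6; 76.3% unthinned), 22.8% of monocyte-like (20.1 to 25.7; 66.4% unthinned) and 10.5% of DC-like cells (5.99 to 16.7; 23.8% unthinned), and in 0.866% and 0.112% of the cells with CD3E above 0 of blood and ileum. CD14 was seen in 33.3% of monocyte-like (30.2 to 36.5; 69.0% unthinned) and 22.6% of macrophage-like cells (14.6 to 32.4; 40.9% unthinned), against 0.866% of blood cells with CD3E above 0 (median depth 3366 UMIs).

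CD163 was seen in only 9.68% of macrophage-like cells (4.52 to 17.6; 26.9% unthinned) and 7.38% of monocyte-like cells (5.74 to 9.31; 25.3% unthinned). The intervals overlap although the CPM differ in both pigs, so no order was read from these shares. Among the 25 macrophage-like cells with an unthinned CD163 UMI, 22 had at least 10 C1q UMIs, beside 75 of all 93 macrophage-like cells. No relation of CD163 to C1q within cells was read from these counts.

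The 3 chains of C1q were found together. After thinning, 74 of 93 macrophage-like cells (79.6%) had a UMI of all 3 chains, 4 had 2 chains, 0 had a single chain and 15 had none. Unthinned, 75 cells had at least 10 summed C1q UMIs and 42 had at least 100, with a median of 72.0 and a highest value of 620 UMIs per cell, while 12 cells had none. The median depth was 4583 UMIs in the cells without C1q and 4133 UMIs in those with at least 10 C1q UMIs. The 12 cells without C1q, 8 of pig 1 and 4 of pig 2, had 34.5 CPM of CD163 and 103 CPM of CD68, with UMIs in only 2 and 4 cells. The 75 C1q-high cells had 265 and 867 CPM. CSF1R was at 586 CPM without C1q and at 412 CPM in the C1q-high cells. These cells were picked by their C1q counts and pooled over pigs, so their levels are a description only. When the clustering was made finer, at resolution 3, 25 cells left the macrophage-like cluster as cells with monocyte markers. These 25 cells had 33.2 ± 47.0 CPM of CD163 and 256 ± 13.9 CPM of CD68 (mean ± SD, n = 2 sums labelled by pig). Their CD163 level came from 3 UMIs in 1 cell of pig 1. The other 68 had 267 ± 42.2 and 862 ± 43.4 CPM, and C1QA was at 4815 ± 1990 against 12230 ± 1050 CPM. In the 68 cells, 42 of the 66 CD163 UMIs of pig 1 came from the whole ileum library that went against its label. The 2 sums may thus not be of separate animals.

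C1QA made 40.8% to 43.6% of the C1q UMIs of macrophage-like cells over the 6 libraries, C1QB 32.6% to 40.7% and C1QC 18.6% to 24%. In ileal cells with CD3E above 0 the proportions were 42.6%, 36.3% and 21.1%, but these include C1q-high cells. Of the 16117 cells, 25 had at least 10 C1q UMIs and 7 at least 100, and 1 cell held 409 of the 2668 C1q UMIs. In the barcodes with at most 100 UMIs of the ileal libraries C1QA made 40.5% to 45.2%, C1QB 32.2% to 39.8% and C1QC 15.8% to 26.5%.

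**Figure D4:**
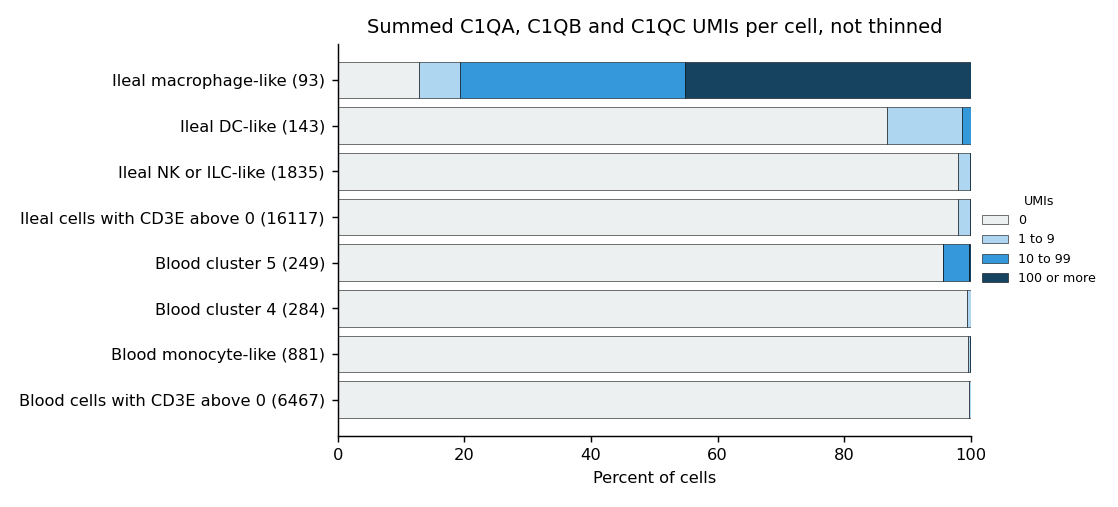
Percent of cells with 0, 1 to 9, 10 to 99 and at least 100 summed C1QA, C1QB and C1QC UMIs, not thinned, by class; the number of cells is in parentheses. Macrophage-like cells fill the upper bins, with 42 of 93 at 100 or more, and blood cluster 5 is the blood bar with a visible share at 10 or more.

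A few blood cells carried C1q as well. Of 249 cells in blood cluster 5, 11 had at least 10 C1q UMIs and the other 238 had none, so that the C1QB levels of this cluster, 45.6 CPM in pig 1 and 119 CPM in pig 2, came from 2 and 9 cells. These 11 cells had 357 C1q UMIs in all, of which C1QA made 22.4%, C1QB 53.5% and C1QC 24.1%; the difference from ileum was not tested. Of these UMIs 1 cell held 111, and pig 1 gave only 19 of C1QA, 26 of C1QB and 7 of C1QC, so the proportions rest on few cells. They also had 400 CPM of CSF1R, 250 CPM of CD68 and 190 CPM of CD163, against 366, 116 and 87.3 CPM in the other cells of the cluster. In blood NK or ILC-like cells no C1q UMI was counted in 1406 cells. The 11 cells were picked for their C1q counts, so their levels are a description of these cells only.

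Among the blood monocyte-like clusters CD14 and CD163 ran in nearly opposite orders. CD14 fell from 863 and 1355 CPM in the 2 pigs in cluster 9 over 276 and 532 CPM in cluster 2 and 141 and 226 CPM in cluster 14 to 81.5 and 98.2 CPM in cluster 1. CD163 was at 19.6 and 5.27 CPM in cluster 9, at 33.0 and 50.3 CPM in cluster 2, at 70.4 and 58.1 CPM in cluster 14 and at 64.7 and 89.8 CPM in cluster 1. In both pigs the cluster with the highest CD14, cluster 9, had the lowest CD163, but this level lay near the floor. After thinning, 1 of the 120 cells of cluster 9, a cell of pig 1, had a CD163 UMI, and 0 of its 94 cells of pig 2 had any. Cluster 9 had neutrophil markers, only 3 of them in the matrices, as its second highest score. It also had the lowest median depth of the monocyte-like clusters, 1889 UMIs, against 8813 UMIs in cluster 1. Whether depth has a part in this order was not tested. CSF1R varied less, between mean levels of 215 and 298 CPM over the 4 monocyte-like clusters, and SIRPA lay between 88.5 and 184 CPM. After thinning, 12 of 881 monocyte-like cells had a UMI of both CD14 and CD163, 281 of CD14 alone and 53 of CD163 alone. CD163 was seen in 4.10% of the cells with CD14 and in 9.01% of those without, but these pool clusters with different levels. Within cluster 1 the shares were 9.43% and 11.3%, and within cluster 2 4.58% and 5.85%, so no relation within cells was read from the pooled shares. Cells are not replicates, and no test was made on them.

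**Figure D5:**
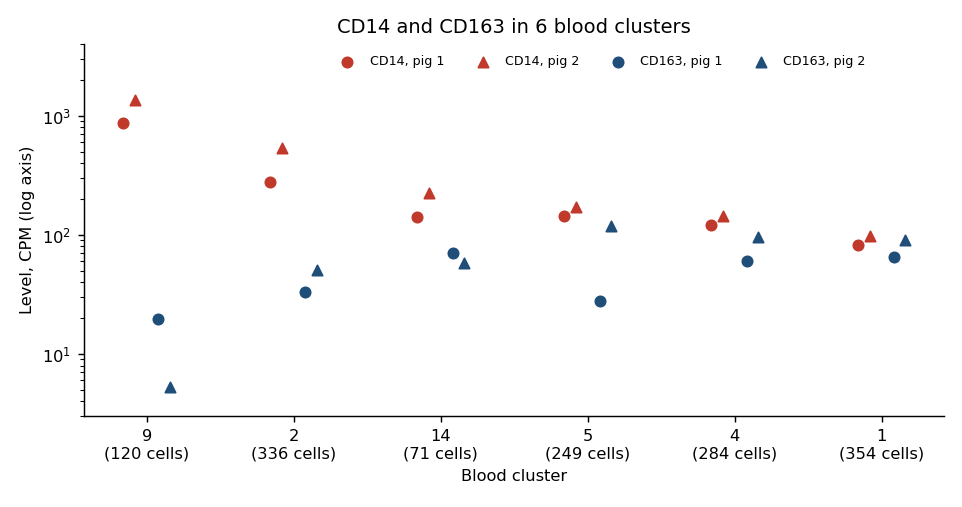
Level of CD14 (red) and CD163 (blue) in 6 blood clusters, in CPM on a log axis; circles are pig 1 and triangles pig 2. Clusters 1, 2, 9 and 14 are monocyte-like. CD14 is highest in cluster 9, where CD163 is lowest and near the floor.

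Within the ileum, PP and non-PP tissue of the same pigs were compared in gated cells. C1QA was at 437 and 394 CPM in PP against 185 and 191 CPM in non-PP, C1QC at 237 and 198 against 82.3 and 82.0 CPM, and CD68 at 59.5 and 29.6 against 11.07 and 11.3 CPM. CD163 was at 9.48 and 8.84 against 0.885 and 2.82 CPM. These levels are relative to all gated cells, whose makeup differed between the dissections. All members but CD14 were higher in both PP than in both non-PP libraries, but none of the 8 passed edgeR's test (adjusted p 0.113 to 0.426), in a comparison where 0.839% of 10133 genes were called, 0.809% higher in PP and 0.0296% lower. At an unadjusted p below 0.05 in edgeR there were 6 of them, beside 1331 of all 10133 genes. DESeq2 called CD68 (adjusted p = 0.00943) and C1QA (adjusted p = 0.000939), beside 339 of 10133 genes. With no filter on low counts edgeR called CD68 (adjusted p = 0.034), beside 193 of 15877 genes.

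Macrophage-like cells were 3.99% and 1.80% of the gated cells in PP and 2.32% and 0.812% in non-PP, a mean difference of 1.33 percentage points (two-sided exact permutation p = 0.667; 2 against 2 libraries cannot go below 0.33). DC-like cells were 3.85% and 5.24% in PP against 1.26% and 1.08% in non-PP (two-sided exact permutation p = 0.33). Both tests took the 4 libraries as unpaired, although PP and non-PP came from the same pigs. Within each pig both shares of gated cells were higher in PP. The gate kept fewer cells in PP, 9.21% and 9.72% of the quality-filtered cells against 12.15% and 29.4% in non-PP. Of all quality-filtered cells, macrophage-like cells were 0.368% and 0.175% in PP and 0.281% and 0.238% in non-PP, which overlap, and DC-like cells 0.354% and 0.509% against 0.154% and 0.318%, so no order of the dissections was read from the macrophage-like shares. Inside the macrophage-like class the C1QA level was 8204 and 12310 CPM in PP and 7951 and 11000 CPM in non-PP, so the dissections overlapped there, while CD68 was at 1023 and 833 CPM in PP and 196 and 508 CPM in non-PP, from 27, 12, 11 and 9 cells. No test was made on these 4 values. Whole ileum libraries lay near PP for C1QA, at 419 and 397 CPM of gated cells.

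Genes that work with these members were taken from lists by pathway. Their counts stand beside 14% of all tested genes called lower and 8.79% higher in blood monocyte-like than in macrophage-like cells, and a list count near these shares is no result about the list. Of 23 tested lysosomal genes around CD68, 18 were lower in blood monocyte-like than in macrophage-like cells, 0 were higher and 5 were not called, with a median log2 difference of -1.84 beside 0.02 over all genes tested. The cathepsin gene CTSL was at 0 and 0.755 CPM in blood and 63.5 and 81.2 CPM in macrophage-like cells, CTSD at 134 and 133 against 2470 and 1370 CPM (log2 difference -3.95 ± 0.33, adjusted p = 1.05e-06), and GM2A, a cofactor of ganglioside breakdown, at 143 and 183 against 967 and 831 CPM (-2.56 ± 0.26, adjusted p = 5.22e-06).

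Of 10 tested complement genes around C1q, 5 were lower in blood monocyte-like cells and 1 was higher. C3, the central complement protein, was at 1.71 and 1.26 CPM in blood and at 415 and 162 CPM in macrophage-like cells (log2 difference -7.68 ± 0.55, adjusted p = 2.06e-06). C1R, the protease that C1q activates, was at 26.6 and 29.2 against 344 and 310 CPM (-3.64 ± 0.28, adjusted p = 9e-07). CALR, calreticulin, a chaperone that also binds C1q, was at 247 and 352 against 665 and 759 CPM (-1.35 ± 0.24, adjusted p = 0.000773).

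Around CD163, 3 of 10 tested genes of haem and iron handling were lower in blood monocyte-like cells and 1 was higher. FTL, the ferritin light chain, was at 1160 and 1990 against 10200 and 12100 CPM (log2 difference -2.93 ± 0.25, adjusted p = 1.05e-06). SLC40A1, the iron exporter ferroportin, was at 16.3 and 22.1 against 142 and 138 CPM (-2.91 ± 0.38, adjusted p = 0.000122), and TFRC, the transferrin receptor, differed by -3.49 ± 0.52 (adjusted p = 0.000207).

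Around CD14, IRAK2, a kinase downstream of Toll-like receptors, was called lower in blood (-2.32 ± 0.43, adjusted p = 0.00117) and the other 8 of 9 tested genes were not called, TLR4 among them at 75.4 and 106 CPM in monocyte-like and 29.9 and 76.4 CPM in macrophage-like cells. Around SIRPA, 0 of 7 tested genes were called by edgeR, and 2 had an unadjusted p below 0.05, beside 1563 of all 4538 genes. Around CSF1R, CSF2RB, the shared chain of the GM-CSF, IL3 and IL5 receptors (-2.18 ± 0.36, adjusted p = 0.00047), and SOCS3, a brake on cytokine signalling (-2.61 ± 0.51, adjusted p = 0.00172), were lower among 4 tested genes and CBL, a ubiquitin ligase, was higher (1.74 ± 0.45, adjusted p = 0.0121; 0.0753 without both whole ileum libraries and 0.0648 without the PP library of pig 1). Of 9 tested myeloid transcription factors 4 were lower and 1 higher, with NR4A1 at 5.14 and 5.28 against 112 and 167 CPM (-4.78 ± 0.42, adjusted p = 1.77e-06), KLF4 at -1.76 ± 0.41 (adjusted p = 0.00646) and IRF8 at -1.39 ± 0.29 (adjusted p = 0.00325).

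Against ileal DC-like cells, where 16.8% of all tested genes were called higher and 16.2% lower, 11 of 23 tested lysosomal genes were higher in blood monocyte-like cells and 3 lower, led by SCARB2, a lysosomal membrane protein (log2 difference 4.42 ± 0.41, adjusted p = 3.21e-06), and LAMP1 (2.96 ± 0.35, adjusted p = 1.82e-05). Of 9 endotoxin receptor genes 4 were higher and 1 lower, with CD180, a Toll-like receptor relative, at 72.8 and 80.0 against 5.44 and 5.56 CPM and TLR2 at 56.6 and 101 against 10.9 and 8.33 CPM (3.03 ± 0.47, adjusted p = 0.000275). C5AR1, the receptor for the complement fragment C5a, was at 138 and 139 CPM in monocyte-like cells (adjusted p = 2.81e-06) and SLC11A1, a metal transporter of phagosomes, at 90.8 and 126 CPM (adjusted p = 6.65e-06), with no UMI of either in DC-like cells.

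Among the transcription factors, ZEB2 was at 265 and 222 CPM in monocyte-like cells against 10.9 and 5.56 CPM in DC-like cells (4.83 ± 0.39, adjusted p = 6.6e-07) and CEBPB at 732 and 1090 against 92.4 and 83.3 CPM (3.35 ± 0.33, adjusted p = 3.4e-06), while NR4A1 was lower (-3.76 ± 0.44, adjusted p = 1.59e-05). Of the SIRPA list, 3 of 7 genes were higher: FCER1G (1.17 ± 0.22, adjusted p = 0.00106), an adaptor of activating receptors, PTPN6 (1.07 ± 0.21, adjusted p = 0.00146), the phosphatase SIRPA recruits, and CD47 itself (0.98 ± 0.30, adjusted p = 0.0214; 0.157 without the PP library of pig 2 and 0.0871 with sums per library). Of the haem and iron list 3 of 10 were higher and 3 lower, of the complement list 5 of 10 were higher and 0 lower, of the CSF list 1 of 4 was higher and 1 lower, and of the transcription factors 3 of 9 were higher and 4 lower.

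Over all gated cells, blood against ileum, 26.3% of all tested genes were called in either direction, 1266 of 10133 higher and 1398 lower. Of the lysosomal genes 14 of 24 were higher and 1 lower. Of the endotoxin receptor genes 7 of 12 were higher and 1 lower, and of the complement genes 6 of 17 were higher and 6 lower. The haem and iron list had 4 of 14 higher and 2 lower, the CSF list 2 of 7 higher and 2 lower, the SIRPA list 4 of 7 higher and 0 lower and the transcription factors 5 of 12 higher and 2 lower. TLR4 differed by 4.07 ± 0.29 (adjusted p = 0.000625), SLC11A1 by 5.63 ± 0.33 (adjusted p = 0.000432), PSAP, a precursor of lysosomal cofactors, by 2.77 ± 0.21 (adjusted p = 0.000656) and ZEB2 by 4.18 ± 0.34 (adjusted p = 0.000866) on the log2 scale. In PP against non-PP, LY86 of the endotoxin receptor list (3.02 ± 0.34, adjusted p = 0.0247) and the transcription factors IRF8 (log2 difference 2.27 ± 0.23, adjusted p = 0.0247) and SPI1 (1.93 ± 0.27, adjusted p = 0.0346) were higher, no gene of the other lists was called, and each of the 3 missed the threshold without both whole ileum libraries (adjusted p 0.0714, 0.0714 and 0.106). Gated B-like cells numbered 139 and 149 in PP against 10 and 12 in non-PP and gated cycling-like cells 199 and 108 against 12 and 46, and their part in these 3 calls was not tested.

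The genes whose pattern was most like each member were looked for over 43 sums of 23 classes by pig, which share libraries, and are given as a description. Closest to CSF1R were NFAM1, C19orf38 and IGSF6 (Pearson r 0.955, 0.951 and 0.937), closest to CD14 were OSCAR, SLC11A1 and CSF3R (0.903, 0.903 and 0.897) and closest to CD163 were FCGR1A, ACOD1 and TFEC (0.890, 0.886 and 0.881). TIMD4 was closest to C1QB and C1QC (0.808 and 0.791), GRN was among the nearest to SIRPA (0.851) and ATP6V0C, a subunit of the vacuolar proton pump, to CD68 (0.834). Among the members, C1QA and C1QB were the most alike (0.933), and CD14 and C1QA the least (0.203).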

How the data were processed

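Single-cell RNA-seq libraries of 3 ileal dissections and of PBMCs of 2 pigs were used. The authors deposited unnormalized counts of UMIs, made with Cell Ranger (4.0.6 per the submitters' processing notes) on Sscrofa11.1 with a modified Ensembl 97 annotation, for all barcodes, before removal of ambient RNA and doublets. The 32 GEO samples are 4 runs of each of 8 libraries, pooled in 1 matrix each. The members, gene lists and classes were chosen with earlier results of these data known. SIRPA was named through the gene table of the study.

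Cells with at least 1250 UMIs, at least 550 genes and at most 12.5% mitochondrial UMIs passed quality filtering, and those with 0 UMIs of CD3E and CD79B were gated. Cells were thinned to 1250 UMIs for shares. Gated cells were log-normalized, and 2000 variable genes (without the members, CD3E, CD79B and the list genes), 30 principal components with a library correction of the Harmony kind, written anew, 20 neighbours and Leiden resolution 1.5 were used, per tissue. A name needed at least 3 detected markers, a score 0.1 above the next class (a margin set after the data were seen) and no more leading markers of another class than of its own. Classes were rebuilt here, so a difference from the study may come from the names. Doublets (score above 0.25, expected rate 0.07) were kept and removed in an alternative.

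Counts were summed per library (gated cells) or per pig and class (at least 20 cells in each pig) and tested with edgeR's quasi-likelihood test after filterByExpr and TMM, with Benjamini-Hochberg adjustment over all genes tested and a threshold of 0.05. The SE is the log2 difference divided by the root of the F statistic. DESeq2 was an alternative. The fits were also run on counts simulated from their own spread estimates. Those runs had independent sums and few changed genes, so no support for the calls was drawn from them. The library or pig was the replicate. All groups of a fit shared a spread estimate for each gene, in the class fit also the blood plasmacytoid DC-like and ileal mast-like sums. Exact intervals (Clopper-Pearson, 95%) cover counting error only. Named genes were the 8 members, per list up to 3 called genes with the largest difference, and per member the 3 genes with the highest Pearson r of log2(CPM + 1) among genes with at least 10 counts in 2 sums. Tools were edgeR 4.0.16 and DESeq2 1.42.0 in R 4.3.3, and leidenalg 0.10.2 and scipy 1.17.1 in Python 3.11.15.

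Replicate numbers are the pigs of the labels. Deviations of same-numbered libraries correlated at 0.591 between PP and non-PP, but at -0.315 and -0.424 between whole ileum and these, the group with the library that went against its label. Promoter motifs were not analysed here. Symbols not found in the matrices were left out of the lists.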

Additional observations from a re-analysis of the deposited data

Results flagged for a closer look

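Cells outside the gate, which the main fits and the class levels did not use, also held C1q. Those with CD3E served as background for the shares, and those with up to 1 UMI of each gate gene entered an alternative. Of 30778 quality-filtered ileal cells with a UMI of CD3E or CD79B, 43 had at least 10 summed C1QA, C1QB and C1QC UMIs and 14 had at least 100, next to 80 gated ileal cells with at least 10. In blood 3 of 9342 such cells had at least 10. Of the 43 ileal cells, 20 came from pig 1 and 23 from pig 2, 25 had CD3E and 22 had CD79B, and 17 had no more than a single UMI of the 2 gate genes. None of the 43 had a doublet score above 0.25. They had 351 CPM of CSF1R, 221 CPM of CD163 and 619 CPM of CD68, against 406, 264 and 851 CPM in the 80 gated cells, and C1QA made 43.1% of their C1q UMIs against 42.8%. Levels of C1QA (6330 against 12700 CPM), C1QB (5040 against 10700), C1QC (3310 against 6340) and CD14 (101 against 206) were lower in the 43 cells. Their median depth was higher, at 5398 against 3668.5 UMIs. Whether the 43 and the 80 cells are of the same kind was not tested. The gate kept between 37.5% (SIRPA) and 70.1% (C1QB) of the members' UMIs of all quality-filtered ileal cells.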

How the results depend on the processing

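The number of genes called depended on the libraries more than the members' calls did. Blood against ileum had 2664 genes called, 1496 without both whole ileum libraries and 360 to 3723 with a library left out in turn (360 without PBMC pig 2, 771 without PBMC pig 1, 1335 and 1461 without whole ileum pig 2 and pig 1, 1743 without PP pig 1), while 6 or 7 members were called. PP against non-PP had 85, 339 with DESeq2, 193 with no filter on low counts, 36 with the pig as a replicate block, 0 without both whole ileum libraries (1058 at an unadjusted p below 0.05) and 0 with the block as well (1249), and 0 to 140 with a library left out, 140 without non-PP pig 1 and 0 or 1 without any other. Monocyte-like against macrophage-like cells had 1033 of 4538 genes called, 593 of 3357 without both whole ileum libraries and 635 of 2229 with sums per library. Monocyte-like against DC-like cells had 1497, 938 and 775, of the same numbers tested. The sums per library took libraries of 1 pig as separate replicates. Leaving out an ileal library gave 748 to 1064 and 1063 to 1418 genes called. With the replicate block these were 2377, 1248 and 1776 for the 3 other comparisons, and no member's call changed; with the whole ileum numbers crossed, blood against ileum had 3230 and PP against non-PP 110. The CD14 difference between monocyte-like and macrophage-like cells, 0.08, turned to -0.18 with blood clusters 4, 5 and 15 joined, -0.05 with up to 1 UMI of each gate gene allowed and -0.11 at resolution 0.75, and ran from -0.24 (without PBMC pig 2) to 0.49 (without PP pig 1). The summed level of the members in macrophage-like cells was 27130 CPM, 30170 at resolution 3 and 24900 to 29320 with a library left out. Of 544 member results under alternatives 519 kept direction and side of the threshold. The cause of these changes was not tested. Macrophage-like cells numbered 9 to 27 per library, which limits values there.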

Other observations

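An ileal cluster of 33 cells had under 3 detected markers of its best class and was kept by number, with RETN, CEBPE and LYZ among its leading genes, and 17 of its cells came from the non-PP library of pig 2. Its SIRPA level was 118 and 108 CPM in the 2 pigs, while its CD14 and CSF1R UMIs lay almost all in pig 1, at 412 and 353 CPM against 0 and 21.6 CPM in pig 2. These levels rest on few UMIs, 5.04% of the 139 CD14 and 2.62% of the 267 CSF1R UMIs of gated ileal cells. Pig 1 gave 4 cells from PP, 2 from non-PP and 3 from the whole ileum library that went against its label. No difference between animals was read. No CD163, C1QA or C1QB UMI was counted in the cluster. Its monocyte markers summed to 1710 CPM in pig 1 and 21.6 CPM in pig 2, its DC markers to 3060 and 4600 CPM, its NK or ILC markers to 2830 and 7150 CPM, and no macrophage marker was seen. In blood the plasmacytoid DC-like cells had SIRPA at 27.8 and 19.4 CPM, below the monocyte-like cells in both pigs.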
